A study of Mus musculus with 14 samples.

Results

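Tip60 knockout (KO) and control mouse embryonic fibroblasts were compared at day 5, with libraries taken by their genotype and day labels. This gave 8 of the 14 RNA-seq libraries of the study, 4 per genotype, and all genes with an identifier were described in them. KO cells were Tip60-/- and control cells Tip60+/+. Fibroblasts came from E13.5 embryos and were kept in 3% O2 and 5% CO2, and 250 nM 4-hydroxytamoxifen (4-OHT), a drug with which tamoxifen-inducible Cre enzymes are activated, was given for 5 days to induce the deletion. The treatment is described for all libraries alike, so it is unclear whether control cells had the drug. Which recombinase acted, in which cells and on which exons was not given in the sources used here. By their cell identifiers all 8 came from separate embryos, and the number that opens an identifier names the litter here. KO replicate 1 was a male of litter 159, replicate 2 a female of litter 136, and replicates 3 and 4 were males of litter 153. Control replicates 1 to 3 were females of litter 218, and control replicate 4 was a male of litter 219 and the only control of its litter. No litter held both genotypes, so genotype and litter cannot be told apart. The overall counts are therefore also given without control replicate 4, as are list counts that move by over 1.5 times without it.

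Tip60, encoded by Kat5, is the catalytic subunit of a large complex that acetylates histone H4 and histone H2A, and that swaps the variant H2A.Z into nucleosomes of promoters and enhancers. It is known as a coactivator of transcription factors such as Myc and p53 and as a sensor of DNA breaks. Fibroblasts in culture normally run high rates of protein synthesis and secretion, and several transcription factors set the supply side of this: ATF4 for amino acids, XBP1 and ATF6 for folding in the endoplasmic reticulum (ER), HIF for glycolysis in low oxygen and SREBP for sterols.

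Kat5 mRNA checked the labels first (gene identifier 81601, mm10, chr19:5603014-5611556). It measured 30.9, 29.8, 32.1 and 30.9 CPM (counts scaled by library totals after TMM adjustment) in control replicates 1 to 4 and 17.3, 17.8, 19.9 and 18.7 CPM in KO replicates 1 to 4. All KO libraries lay below all controls, and the KO mean was 59.5% of that in control cells (log2 fold change -0.75 ± 0.071 SE, adjusted p = 1.59e-06 by edgeR's quasi-likelihood test; exact two-sided permutation p = 0.0286, the smallest that 70 labelings allow). A count over the whole gene also takes in reads from exons outside the deletion, so this share does not measure how many cells kept the gene.

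The 8 libraries held 6064694 to 27172076 counts. On the first principal component (66.1% of the variance) KO libraries lay at -52.8 to -36.7 and control replicates 1 to 3 at 49.6 to 57.1, whereas control replicate 4 lay at 16.5. That library also held the far end of the second component (16.2%), at 56.4 against -17.4 to 9.08 for the other 7. Mitochondrial transcripts made up 1.13% to 1.73% of counts in KO and 0.814% to 1.06% in control.

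**Figure D1:**
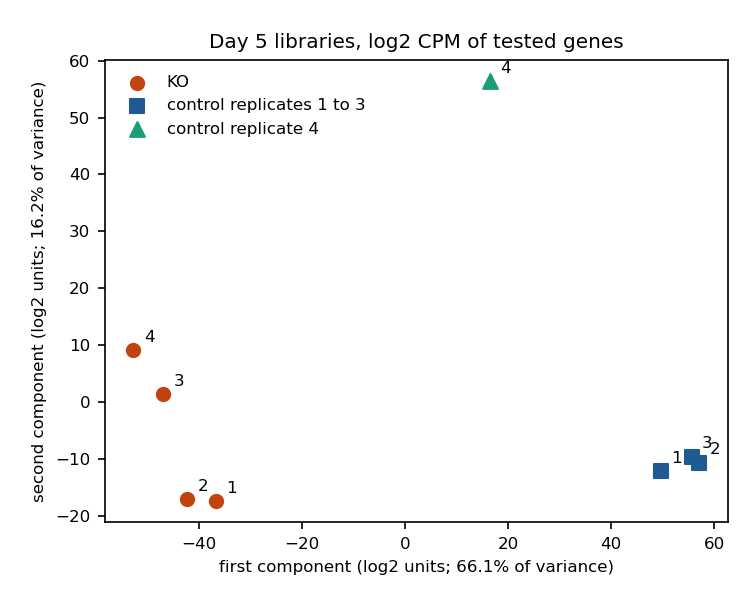
Principal components of log2 CPM over the tested genes in the 8 day 5 libraries (axes: scores on the first and second component, in log2 units, with the share of variance). KO libraries (circles) lie at -52.8 to -36.7 on the first component and control replicates 1 to 3 (squares) at 49.6 to 57.1, with control replicate 4 (triangle) apart at 16.5 and 56.4.

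At day 5, 7519 of 14327 tested genes (52.5%) differed between KO and control at an adjusted p below 0.05 (edgeR's quasi-likelihood test, Benjamini-Hochberg adjustment): 3769 were higher (26.3%) and 3750 lower (26.2%) in KO. A change larger than 1.5-fold was called for 1710 genes (11.9%; glmTreat), 1058 higher and 652 lower. All 4 KO libraries lay on one side of all 4 controls for 6788 genes (47.4%). The KO effect at day 5 differed from that at day 3 for 2051 genes (14.3%, interaction contrast). Day 3 had 3 other libraries per genotype, and its 3 controls came from 2 embryos. These controls were all females of litter 218, and the day 3 KO libraries came from litters 136 and 153. Control replicate 4 (litter 219) and KO replicate 1 (litter 159) thus had no day 3 library of their litter. Differences between days cannot be told apart from this change of litters. By cell identifier, KO replicates 2 to 4 and control replicates 1 and 3 came from embryos that also gave day 3 libraries, and the fit treated all libraries as independent. The median log2 fold change of all tested genes was 0.021. Without control replicate 4, 8376 genes were called (4311 higher and 4065 lower) and 2750 differed between the days. With the counts of each litter summed (3 KO litters against 2 control litters), 3909 were called.

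Genes with the largest changes were named only where the groups did not overlap and the call held without control replicate 4. Among the genes with the largest increases were a claudin, an organic anion transporter and an aldehyde dehydrogenase. Cldn11, a claudin of tight junctions, measured 0.129, 0.156, 0 and 0.436 CPM in control replicates 1 to 4 and 20.8, 26.1, 21.4 and 27.4 CPM in KO replicates 1 to 4 (log2 fold change 6.84 ± 0.44 SE, adjusted p = 1.45e-07). Slco1a4, an organic anion transporter, stood at 0.193, 0.0519, 0 and 0.291 CPM in control and 7.14, 10.6, 5.18 and 6.64 CPM in KO (5.57 ± 0.44, adjusted p = 1.01e-06). Aldh3a1, an aldehyde dehydrogenase, stood at 0, 0.0519, 0 and 0.655 CPM in control and 10.2, 6.25, 8.78 and 9.58 CPM in KO (5.51 ± 0.58, adjusted p = 4.79e-06). In all of these the control libraries were at or under 1 CPM and control replicate 4 was the highest control. That the groups did not overlap was required by the rule. Without that library the estimate of Cldn11 was 7.52, and for Aldh3a1 the other controls held 1 count in all, so no estimate is given. Scube1, a secreted and cell-surface EGF-repeat protein, went from 1.11 ± 0.422 to 22.8 ± 3.09 CPM (mean ± SD, n = 4 each; 4.29 ± 0.25), a 20.6-fold increase.

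The interleukin-1 receptor antagonist Il1rn measured 15.2, 19.1 and 21.7 CPM in control replicates 1 to 3, 84.2 CPM in control replicate 4 and 252, 503, 404 and 518 CPM in KO (log2 fold change 3.57 ± 0.54 SE, adjusted p = 0.000199). The serine protease-like Prss35 showed the same order, with 6.11, 6.38 and 7.82 CPM, 27.1 CPM and 105 to 174 CPM (3.54 ± 0.45, adjusted p = 5.54e-05). For both genes control replicate 4 lay above the other controls and below every KO library, and the estimate without it was larger, at 4.51 and 4.40. Lubricin (Prg4), a boundary lubricant of joints, had no such order: control replicate 4 was the lowest library at 3.64 CPM, the other controls lay at 5.41 to 5.97 CPM and KO at 38.8 to 77.8 CPM (3.48 ± 0.45). Among KO libraries Prg4 was highest in the pair of litter 153, as was the peptide transporter Slc15a2 (5.39, 4.83, 9.65 and 16.2 CPM in replicates 1 to 4, against 0.156 to 1.31 CPM in control; 3.95 ± 0.86, 4.79 without control replicate 4). Kininogen (Kng1) had the opposite split, at 13.2, 17.3, 4.01 and 4.63 CPM in KO and 0.623 to 1.31 CPM in control (3.51 ± 0.58). The galactosidase-like Glb1l2 (3.72 ± 0.43) and the zinc finger gene Zkscan16 (3.43 ± 0.36) also rose. Clca3a2 (3.66 ± 0.29) belongs to a cluster of similar genes among which reads can be split, so its value is uncertain.

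Among the genes with the largest decreases were a folate enzyme and a lactate transporter. Aldh1l2, the mitochondrial enzyme that oxidizes 10-formyl-tetrahydrofolate, measured 124, 135, 136 and 117 CPM in control and 18.4, 21, 19.4 and 21.2 CPM in KO (log2 fold change -2.68 ± 0.085 SE, adjusted p = 1.35e-10), or 15.6% of control. Slc16a3, the lactate exporter MCT4, measured 340.2, 374, 346 and 221 CPM in control and 53.3, 58.3, 47 and 45.5 CPM in KO (-2.65 ± 0.15, adjusted p = 2.42e-08), or 15.9% of control. The GDP-dissociation inhibitor Arhgdig fell from 7.74 ± 0.335 to 1.04 ± 0.0839 CPM (-2.87 ± 0.17). For Aldh1l2 and Arhgdig all 4 controls lay close together, while control replicate 4 was the lowest control for Slc16a3.

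Control replicate 4 was nearer to KO in several others of the lowest genes. The vesicle priming gene Unc13a stood at 18.2, 21.9 and 16.6 CPM in control replicates 1 to 3, 5.09 CPM in control replicate 4 and 1.73 to 2.69 CPM in KO (-2.83 ± 0.39). F2rl1, the protease-activated receptor 2, had 29.3, 35.8 and 23.8, then 6.18, against 3.15 to 4.58 CPM (-2.63 ± 0.42). Stc2, a secreted glycoprotein induced by ER stress and hypoxia, had 28.6, 35.9 and 36.7, then 8.65, against 3.76 to 6.75 CPM (-2.41 ± 0.36). By the rule for naming them the groups did not overlap in these 3 genes, but control replicate 4 lay closer to the KO libraries than to the other controls. The GTPase activator Rgs11 (-2.52 ± 0.32), nicotinamide N-methyltransferase Nnmt (-2.28 ± 0.40) and the peptide hormone Adm2 (-2.74 ± 0.28) had the same order, and the fall of Ydjc (-2.39 ± 0.24) was less uneven, with 14.9, 14.1, 19.2 and 10.3 CPM in control and 2.23 to 3.20 CPM in KO.

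**Figure D2:**
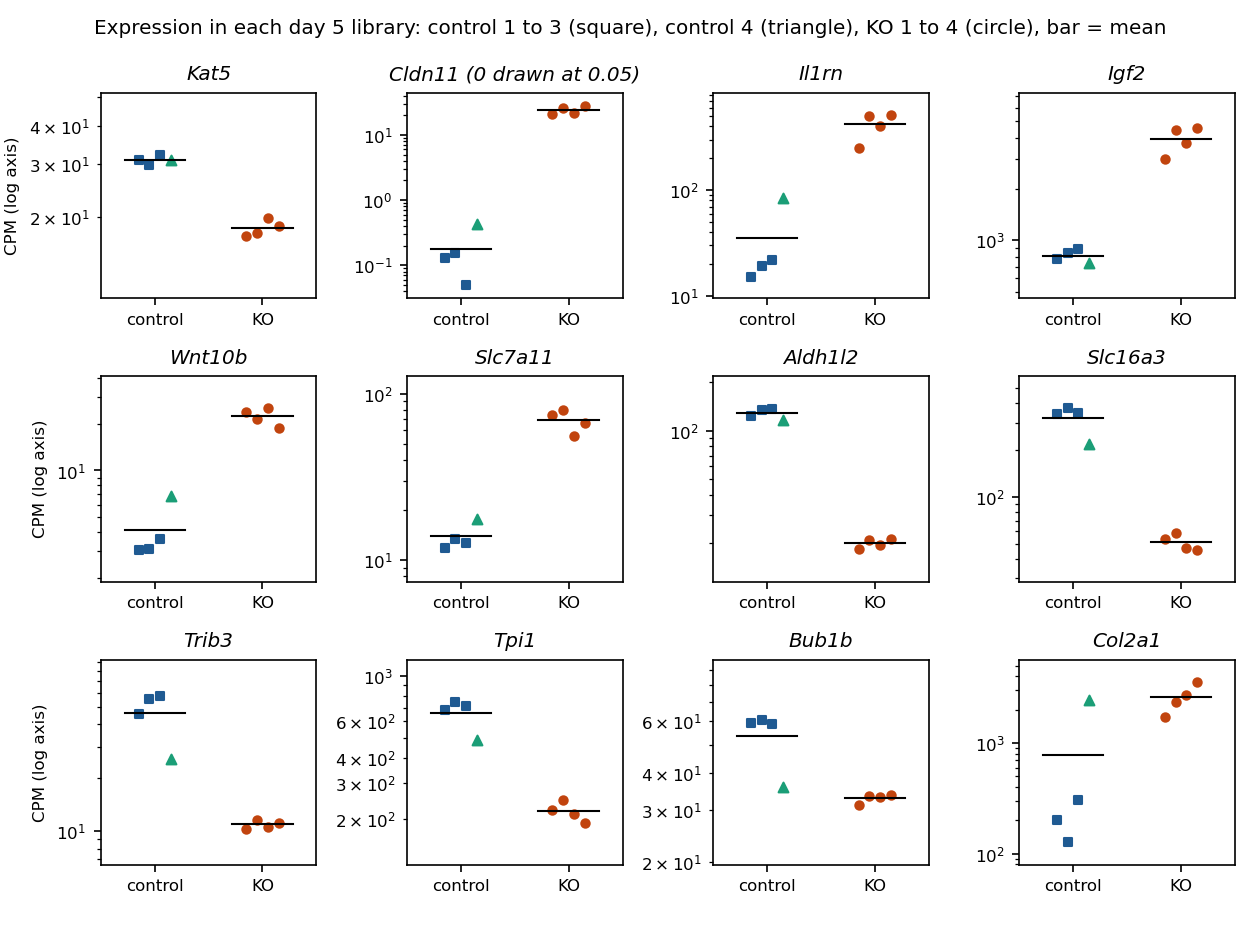
Expression (CPM, log axis) of 12 genes in each of the 8 day 5 libraries: control replicates 1 to 3 (squares), control replicate 4 (triangle) and KO replicates 1 to 4 (circles), with a bar at the mean of the 4 libraries of each group. The groups do not overlap except in Col2a1, where control replicate 4 (2472 CPM) lies among the KO libraries.

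Genes of amino acid supply and of tRNA charging were lower in KO. Of 21 tested genes of amino acid and one-carbon synthesis, 18 fell and 2 rose (median log2 fold change -1.04), and of 21 aminoacyl-tRNA synthetases, 19 fell and 0 rose (median -0.87). These are 85.7% and 90.5% of the lists, against 26.2% lower among all tested genes. These counts were the same without control replicate 4. Pck2, the mitochondrial PEP carboxykinase, measured 124, 133, 136 and 132 CPM in control and 36.3, 34.7, 37.7 and 41.3 CPM in KO (log2 fold change -1.80 ± 0.077 SE, adjusted p = 2.2e-09). Asns, asparagine synthetase, measured 188, 205, 194 and 154 CPM in control and 87.3, 82.4, 94.2 and 89.2 CPM in KO (-1.07 ± 0.11, adjusted p = 4.46e-06). In both the KO libraries were all under every control, at 28.6% and 47.7% of the control mean. Proline synthesis fell at Aldh18a1 (-1.51 ± 0.094) and Pycr1 (-1.73 ± 0.18), and the cystathionine-cleaving enzyme Cth fell by 2.83-fold (-1.50 ± 0.12). Among the synthetases, the seryl enzyme Sars went from 271 ± 12.3 to 118 ± 8.16 CPM (-1.19 ± 0.072), the cysteinyl enzyme Cars from 163 ± 19.7 to 61.9 ± 1.09 CPM (-1.40 ± 0.10), and Iars (-1.07 ± 0.089) and Gars (-1.21 ± 0.11) fell alike.

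Amino acid transporters moved both ways, with 6 lower and 2 higher of 15. The glycine transporter Slc6a9 fell (-1.34 ± 0.13). Slc7a11, the cystine importer that feeds glutathione synthesis, measured 11.9, 13.49, 12.7 and 17.7 CPM in control and 74.1, 79.3, 56 and 66.8 CPM in KO (log2 fold change 2.30 ± 0.23 SE, adjusted p = 5.02e-06). It was 4.95-fold higher in KO with no overlap between the groups. As background, ATF4 and NRF2 are both known to activate it. At day 3 its log2 fold change was 0.54, and the effects of both days differed (1.76, interaction adjusted p = 0.00478).

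Promoter sequence is shown for 4 of these genes because they share the C/EBP-ATF response element (CARE, TGATGNAA), to which ATF4 binds. A promoter here is the RefSeq stretch (GRCm38.p6) from 250 bases before to 50 after a gene's start, and 10994 of 14327 tested genes had one. CARE, on either strand, was in 5 of 12 promoters of lowered synthetases (41.7%) and 4 of 15 of lowered amino acid and one-carbon genes (26.7%), against 2.81% of all tested promoters, 2.57% of all lowered and 2.72% of all raised ones. The stretches are those with the smallest adjusted p among called genes of the amino acid, unfolded protein response and ER chaperone lists whose match lies before the start, read 5′ to 3′ on the gene's strand with the CARE match in capitals. They lie at chr14:55540123-55540210 (plus strand, Pck2), chr2:119351009-119351096 (plus, Chac1), chr11:120643804-120643891 (minus, Pycr1) and chr6:7693210-7693272 (minus, Asns). A match to these letters is a description and not evidence of binding.
Pck2: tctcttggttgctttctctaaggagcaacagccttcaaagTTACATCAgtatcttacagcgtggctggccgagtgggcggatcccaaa
Chac1: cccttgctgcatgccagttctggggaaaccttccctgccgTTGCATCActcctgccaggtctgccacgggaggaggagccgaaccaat
Pycr1: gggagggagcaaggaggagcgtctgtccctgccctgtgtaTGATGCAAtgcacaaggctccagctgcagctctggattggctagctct
Asns: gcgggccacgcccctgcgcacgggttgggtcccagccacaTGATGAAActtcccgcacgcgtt

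Genes of the unfolded protein response (UPR) were more often lower than higher at day 5. Of 17 sensors and factors, 8 fell and 4 rose (median -0.44). The lowered share was 47.1%, against 26.2% of all tested genes. The raised share of 23.5% was near the 26.3% of all tested genes. Trib3, a pseudokinase induced by ATF4 and CHOP, measured 45.7, 55.5, 57.8 and 25.5 CPM in control and 10.4, 11.6, 10.6 and 11.1 CPM in KO (log2 fold change -2.07 ± 0.20 SE, adjusted p = 3.49e-06). Chac1, a glutathione-degrading enzyme, and the transcription factor Atf5 fell as well (-1.16 ± 0.11 and -1.43 ± 0.10). Ern1, which encodes the ER stress sensor IRE1, measured 12.6, 13.3, 11.6 and 15.7 CPM in control and 27.4, 25.6, 29.8 and 29.5 CPM in KO (1.07 ± 0.096, adjusted p = 1.01e-06). Ern1 was higher in all KO libraries while Trib3 was lower in all of them. At day 3 Ern1 had a log2 fold change of -0.17, and the effects differed by 1.24 (interaction adjusted p = 0.000164). Atf3, a stress-induced repressor, went from -1.52 at day 3 to 0.76 at day 5 (difference 2.28, adjusted p = 0.000175).

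ER chaperones and folding enzymes were lower at day 5 for 12 of 22 members and higher for 3 (5 without control replicate 4), with a median of -0.34. At day 3 the median was -1.10, and the effect differed between the days for 18 of the 22 genes, against 14.3% of all tested genes. Hsp90b1, the ER form of Hsp90, measured 1855, 1852, 1942 and 2119 CPM in control and 1253, 1312, 1282 and 1165 CPM in KO (log2 fold change -0.63 ± 0.087 SE, adjusted p = 4.07e-05), a smaller decrease than the -1.86 at day 3 (interaction adjusted p = 9.52e-05). The lectin chaperone Calr moved in the same way (-0.62 ± 0.094 against -1.46 at day 3, interaction adjusted p = 0.00193). The disulfide isomerase P4hb stood at -0.60 ± 0.083 at day 5 and -0.64 at day 3 (interaction adjusted p = 0.902). Ero1b, an ER oxidase, was raised in every KO library (11.6, 14.6, 11.8 and 11 CPM against 4.98 to 6.55 CPM in control; 1.16 ± 0.13) after -0.96 at day 3 (interaction adjusted p = 4.45e-05).

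The ER stress element (ERSE, CCAAT, 9 bases of any kind, then CCACG) was in 5 of 11 promoters of lowered chaperones (45.5%) and in that of Ero1b. It was in 0.164% of all tested promoters and 0.24% of all lowered ones. Its share among chaperones that were not called was not computed. None of the 15 promoters of lowered amino acid and one-carbon genes held it. Of genes for ER-associated degradation and export, 13 of 26 fell and 4 rose. Sec24d, a coat protein of ER exit vesicles, fell to 46% of control (-1.12 ± 0.086), more than its -0.28 at day 3 (interaction adjusted p = 0.0012), whereas the mannosidase-like Edem1 fell less (-0.67 ± 0.066 against -1.15, interaction adjusted p = 0.00657).

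**Figure D3:**
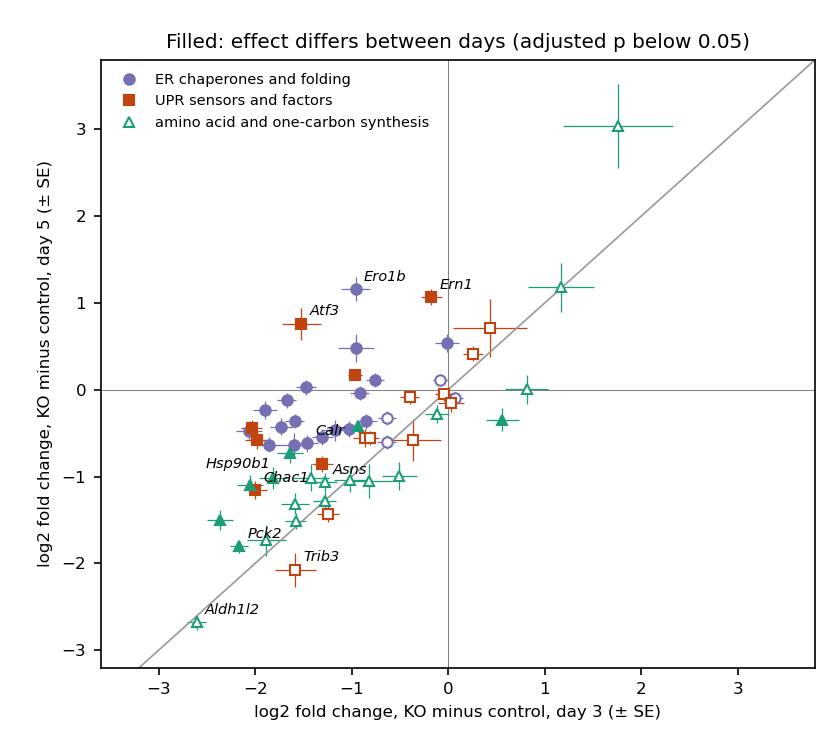
KO effect at day 3 (x axis) and day 5 (y axis), each as log2 fold change with SE bars, for the tested members of the ER chaperone, UPR and amino acid synthesis lists; filled symbols have an interaction adjusted p below 0.05 and the grey line marks equal effects. The effect differs between days for 18 of 22 ER chaperones, and Ern1, Ero1b and Atf3 are below 0 at day 3 and above 0 at day 5.

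Most glycolysis genes were lower in KO. Of 25 glycolysis and lactate genes, 20 fell and 1 rose (median -1.02; without control replicate 4, 21 and 1). Triosephosphate isomerase (Tpi1) measured 679, 749.7, 713 and 488 CPM in control and 222, 248, 211 and 192 CPM in KO (log2 fold change -1.59 ± 0.12 SE, adjusted p = 3.39e-07). Aldolase C (Aldoc) measured 13.1, 12.5, 11.9 and 7.35 CPM in control and 2.52, 2.63, 1.52 and 1.44 CPM in KO (-2.45 ± 0.21, adjusted p = 7.33e-07). Control replicate 4 was the lowest control for both and for Slc16a3, above all KO libraries. The single gene that rose was Ldhb, the lactate dehydrogenase subunit of oxidative tissues (1.17 ± 0.096; 38.6 to 46 CPM against 16.8 to 22.3 CPM in control). The decreases of Slc16a3 and Tpi1 were larger at day 5 than at day 3 (interaction adjusted p = 0.0111 and 0.0313).

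Other targets of hypoxia-inducible factors were also mostly lower in these cells grown at 3% O2: 16 of 24 fell and 0 rose (median -0.67, 6 lower with litters summed; 17 and 2 without control replicate 4). P4ha1, the collagen prolyl hydroxylase, went from 576 ± 21.6 to 327 ± 10.9 CPM (-0.82 ± 0.065), Fam162a from 162 ± 36.4 to 58.5 ± 6.06 CPM (-1.47 ± 0.14) and Ankrd37 from 12.1 ± 3.48 to 3.05 ± 0.430 CPM (-2 ± 0.21). The ACGTG core of the hypoxia response element was in 14 of 20 promoters of lowered glycolysis genes (70.0%) and 12 of 16 of other lowered targets (75.0%), against 28.8% of all tested promoters and 34.9% of all lowered ones. Among lowered replication genes and synthetases, which are not hypoxia lists, 55.6% and 50% of promoters held it. This core is also part of the E-box CACGTG.

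Of the genes of sterol and fatty acid synthesis many fell and none rose. In KO cells 23 of 25 cholesterol genes fell (median -0.85), and 10 of 15 fatty acid genes did (median -0.64); without control replicate 4 the counts were 25 and 14. With litters summed 6 and 4 were called. The sterol element (TCACNCCAC, either strand) was in 1 of 16 promoters of lowered cholesterol genes, against 1.36% of all tested promoters. Farnesyl diphosphate synthase (Fdps) measured 84.8, 75, 73.5 and 43 CPM in control and 29.2, 26.4, 23.6 and 19.5 CPM in KO (log2 fold change -1.48 ± 0.21 SE, adjusted p = 9.54e-05). The lowest control was replicate 4, the lowest KO libraries were those of litter 153, and the groups did not overlap. Mevalonate kinase (Mvk, -1.11 ± 0.12) and lathosterol oxidase (Sc5d, -0.99 ± 0.15) fell too. Of the desaturases, Fads1 fell (-1.21 ± 0.11), and Fads2 did so at day 5 (-0.95 ± 0.15) with -0.075 at day 3 (interaction adjusted p = 0.0236).

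Genes for protein synthesis, folding and degradation had smaller medians. Lower genes numbered 32 of 62 ribosomal proteins (median -0.49), 34 of 42 ribosome biogenesis factors (-0.40), 29 of 33 translation initiation factors (-0.46), 23 of 26 cytosolic and mitochondrial chaperones (-0.54) and 29 of 32 proteasome subunits (-0.39), and none of these lists had a higher member. The shares ran from 51.6% (ribosomal proteins) to 90.6% (proteasome). Without KO replicate 2 the lower ribosomal proteins numbered 21, and with litters summed the lower biogenesis factors numbered 17. Eif4ebp1, the translation repressor that mTOR phosphorylates, fell the most among the initiation factors named here, from 111 ± 10.8 to 46.4 ± 3.20 CPM (-1.26 ± 0.096). Eif4b fell to 55.5% of control (-0.85 ± 0.059), Rpl4 to 59% (-0.76 ± 0.085) and Hsp90ab1, the constitutive cytosolic Hsp90, to 61.8% (-0.69 ± 0.082). The mitochondrial chaperone Hspa9 measured 742, 796, 773 and 576 CPM in control and 346, 338, 349 and 337 CPM in KO (log2 fold change -1.08 ± 0.11 SE, adjusted p = 2.83e-06), with no overlap. The E-box CACGTG, to which Myc binds, was in 9 of 32 promoters of lowered ribosome biogenesis genes (28.1%), against 11.6% of all tested promoters and 14.7% of all lowered ones. It was also in 33.3% of the promoters of lowered synthetases and 25.0% of those of lowered cholesterol genes. Ribosomal protein genes have many processed copies in the genome, so single members are uncertain.

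At day 3, 12 of 32 proteasome genes were lower (median -0.16), against 48 of 62 ribosomal proteins (median -0.92). The ATPase subunit Psmc3 moved from -0.029 to -0.57 ± 0.057 between the days (interaction adjusted p = 0.00143) and Psma7 from -0.37 to -0.78 ± 0.072 (interaction adjusted p = 0.0287). The difference between days was called for 5 of 32 proteasome and 3 of 62 ribosomal protein genes. The proteasome share is near the 14.3% of all tested genes.

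Counts of mitotic and replication genes turned on control replicate 4. Of 68 mitotic genes, 16 were lower and 2 higher in KO at day 5 (median -0.14), and 30 and 2 without that library. The 23.5% called lower with all libraries is near the 26.2% of all tested genes. Of 48 replication genes 11 were lower and 2 higher, and 23 and 1 without it. The CHR element of cell cycle promoters (TTTGAA, either strand) was in 12 of 14 promoters of lowered mitotic genes (85.7%). It was in 14.2% of all tested promoters and 13% of all lowered ones. Its share among mitotic genes that were not lowered was not computed, so no link to being lowered can be read from it. The spindle checkpoint kinase Bub1b measured 59.5, 60.8, 58.7 and 36 CPM in control and 31.2, 33.6, 33.3 and 33.8 CPM in KO (log2 fold change -0.70 ± 0.15 SE, adjusted p = 0.00165). Thymidine kinase Tk1 measured 25, 28.6, 20.9 and 13.9 CPM in control and 9.41, 10.4, 10.2 and 12.8 CPM in KO (-1.05 ± 0.20, adjusted p = 0.000624). With the counts of each litter summed, 1 mitotic and 1 replication gene were called lower. With sex as a covariate 8 mitotic genes were lower and 3 higher, 7 replication genes were lower and 8 higher, and both medians turned positive (0.066 and 0.016). Without control replicate 2 the lower mitotic genes numbered 10, and without control replicate 1, 2 or 3 the lower replication genes numbered 7. In Bub1b and Tk1, control replicate 4 lay next to the KO libraries and well under the other controls. The same held for the helicase subunit Mcm2 (81.5, 86.8, 84.4 and 53.6 CPM in control, 42.4 to 47.2 CPM in KO). Of 22 genes of G1/S cyclins, CDKs and E2F, 12 were lower (54.55%) and 2 higher, and 15 and 2 without control replicate 4. This list was not followed under the other alternatives. Of the named G1/S genes, Cdk4 fell to 60.1% of control with little difference among controls (332, 343, 345 and 291 CPM; -0.74 ± 0.066).

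Mitotic genes had moved the other way at day 3, when 44 of 68 were higher in KO and 0 lower (median 0.61), and the effect differed between days for 31 of them. The mitotic kinase Plk1 went from 0.88 to -0.51 ± 0.12 (interaction adjusted p = 0.000631) and cyclin E1 (Ccne1) from 0.44 to -0.52 ± 0.076 (interaction adjusted p = 0.000299). Homologous recombination and Fanconi genes kept to the higher side at day 5, with 11 of 37 higher and 2 lower (median 0.26). That share of 29.7% is near the 26.3% of all tested genes. With sex as a covariate 17 were higher, and with litters summed 2. Brca2 was 0.73 ± 0.13 and the Fanconi helicase Fancm 0.42 ± 0.084, both lower than their day 3 values of 1.48 and 1.08 (interaction adjusted p = 0.0289 and 0.00633).

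Inhibitors of cyclin-dependent kinases did not move as a group: 3 of 7 fell and 3 rose. Cdkn1a, which encodes p21, measured 468, 461, 440.1 and 532 CPM in control and 273, 266, 279 and 271 CPM in KO (log2 fold change -0.80 ± 0.071 SE, adjusted p = 9.18e-07). Cdkn2b, which encodes p15, measured 67.5, 69.5, 76.1 and 82.5 CPM in control and 120.3, 120.5, 126 and 130.0 CPM in KO (0.75 ± 0.086, adjusted p = 7.92e-06). Cdkn2a, whose gene-level count pools p16 and p19Arf transcripts, measured 64.8, 68.8, 73.3 and 103 CPM in control and 47.9, 44.9, 50.8 and 47.7 CPM in KO (-0.70 ± 0.13, adjusted p = 0.000459). Thus p21 and the Cdkn2a count were lower and p15 higher in each KO library than in any control, with control replicate 4 the highest control for all of them. Cdkn1b (0.29 ± 0.11) and Cdkn2c (0.51 ± 0.14) rose with overlapping groups, Cdkn2d fell (-0.44 ± 0.12), and Cdkn1c was at 0.015 ± 0.24 (adjusted p = 0.967). Cdkn1b lost its call without control replicate 2, control replicate 3, KO replicate 3 or KO replicate 4, when sex was a covariate and with litters summed (adjusted p 0.00471 to 0.452 over the alternatives). With litters summed Cdkn2c and Cdkn2d lost theirs as well. Among p53 targets 17 of 34 fell and 5 rose (median -0.31; 17 and 11 without control replicate 4, 9 and 1 with litters summed), with Trp53 itself at -0.67 ± 0.085 and the nuclease Aen at -0.74 ± 0.074. The higher p53 targets numbered 2 without control replicate 1, control replicate 2 or KO replicate 1 and 3 without control replicate 3 or KO replicate 2. Of the BCL2 family, the death effectors Bak1 (-0.96 ± 0.093) and Bok (-1.12 ± 0.14) and the survival gene Bcl2l1 (-0.67 ± 0.087) fell, while Bcl2l11, which encodes BIM, rose (1.04 ± 0.14).

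Several lists of intercellular signalling genes had more members raised than lowered. Of 41 Wnt pathway genes 24 rose and 2 fell (median 1.02), and without control replicate 4 29 and 3. With litters summed 10 were called higher. The share raised was 58.5%, against 26.3% of all tested genes. The ligand Wnt10b measured 3.03, 3.06, 3.58 and 6.84 CPM in control and 24.2, 21.5, 25.6 and 19 CPM in KO (log2 fold change 2.45 ± 0.26 SE, adjusted p = 5.23e-06). The receptor Fzd1 measured 102, 88.2, 112 and 144 CPM in control and 312, 334, 328 and 316 CPM in KO (1.53 ± 0.13, adjusted p = 4.75e-07). The secreted inhibitor Sfrp1 measured 78.5, 82.8, 93.2 and 101 CPM in control and 339, 438, 316 and 317 CPM in KO (1.99 ± 0.14, adjusted p = 1.62e-07). A ligand, a receptor and an inhibitor were thus raised side by side, and control replicate 4 was the highest control of each. The ligand Wnt11 rose by 3.69-fold (1.87 ± 0.18). The increase of Sfrp1 was smaller than at day 3 (3.94; interaction adjusted p = 0.000112).

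BMP and TGF-beta genes rose in 20 cases of 39 and fell in 4 (median 0.58, 9 higher with litters summed). The ligand Bmp7 went from 0 to 0.364 CPM in control to 1.13 to 2.34 CPM in KO (3.15 ± 0.45), the receptor Tgfbr1 rose (0.60 ± 0.091) and the receptor Acvrl1 fell (-1.07 ± 0.15). Of the Hedgehog genes 6 of 12 rose, among them the ligand-binding inhibitor Hhip (2.11 ± 0.30) and the co-receptor Gas1 (79.8, 85.8, 99.1 and 37.5 CPM in control, 171 to 234 CPM in KO; 1.46 ± 0.27). Of the Notch genes 6 of 15 rose and 2 fell, with the targets Hey1 (2.30 ± 0.41) and Heyl (2.25 ± 0.35) raised and the coactivator Maml1 lowered (-0.76 ± 0.08). Axon guidance genes, which also steer fibroblasts, rose in 25 cases of 52 and fell in 5, with 33 and 6 without control replicate 4 and 14 and 3 with litters summed. The lower ones numbered 3 without KO replicate 3 or KO replicate 4. The raised shares were 51.3% for BMP and TGF-beta, 50% for Hedgehog, 40% for Notch and 48.1% for axon guidance genes, against 26.3% of all tested genes. With litters summed, 4 Hedgehog and 4 Notch genes were called higher. The ligand Slit2 (0.75 ± 0.068) and its receptor Robo1 (1.39 ± 0.14) rose together with the ephrin Efnb2 (1.01 ± 0.09), and for Slit2 the day 3 value was 0.083 (interaction adjusted p = 0.00117).

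Insulin-like growth factor genes were among those raised. Igf2, the fetal growth factor that is imprinted, measured 777, 842, 888 and 731 CPM in control and 2990, 4440, 3712 and 4561 CPM in KO (log2 fold change 2.28 ± 0.17 SE, adjusted p = 2e-07), a 4.85-fold increase. Its binding protein Igfbp4 measured 152, 139.7, 173 and 257 CPM in control and 560.4, 612, 768 and 913 CPM in KO (1.98 ± 0.22, adjusted p = 1.02e-05). All KO libraries stood above all controls in both, and for Igf2 control replicate 4 was the lowest control. Dlk1, also imprinted and a Notch-like surface protein of preadipocytes, rose from 116 ± 12.4 to 346 ± 45.8 CPM (1.57 ± 0.14). The mRNA-binding Igf2bp2 fell (-1.32 ± 0.099). Of 18 IGF genes 8 rose and 3 fell, and 12 and 3 did so without control replicate 4. Among receptor tyrosine kinases the HGF receptor Met fell (-1.17 ± 0.12) and the angiopoietin receptor Tek rose (2.40 ± 0.25).

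Matrix genes moved both ways except for small leucine-rich proteoglycans, of which 6 of 12 rose and 0 fell (median 1.20, 2 higher with litters summed; 10 and 1 without control replicate 4). Decorin (Dcn), which binds collagen fibrils, measured 60.2, 56.8, 53.8 and 13.9 CPM in control and 174, 167, 134 and 91.6 CPM in KO (log2 fold change 1.62 ± 0.37 SE, adjusted p = 0.00327). Osteomodulin (Omd) measured 2.19, 2.18, 3.58 and 10.9 CPM in control and 22, 30.4, 58.5 and 77.8 CPM in KO (3.33 ± 0.55, adjusted p = 0.000385). Control replicate 4 was the lowest control for Dcn and the highest for Omd. Without it the estimate for Omd was 4.26. The metalloprotease inhibitor Timp2 measured 1423, 1436, 1578 and 2932 CPM in control and 4382, 3922, 4485 and 4447 CPM in KO (1.23 ± 0.21, adjusted p = 0.000246), with control replicate 4 near the middle between the other controls and KO. Osteopontin (Spp1) fell (-1.09 ± 0.23), and of the collagens Col23a1 rose (2.52 ± 0.26) while Col4a5 (-0.95 ± 0.14) and Col6a2 (-0.67 ± 0.15) fell.

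Of the cartilage genes, all called members rose. In control replicates 1 to 3 the 21 cartilage markers summed to 578, 489.6 and 749 CPM, in control replicate 4 to 3511 CPM and in KO to 2419, 3284, 3694 and 4639 CPM. Control replicate 4 thus lay inside the KO range. Of 17 tested markers 10 rose and 0 fell (median 1.71, 3 higher with litters summed), against 15 and 0 (median 2.50) without that library. The cartilage collagen Col2a1, chosen after its values were seen, measured 203, 127, 303 and 2472 CPM in control and 1708, 2357, 2728 and 3548 CPM in KO. It was not called with all libraries (log2 fold change 1.74 ± 0.82 SE, adjusted p = 0.0958) and was called without control replicate 4 (3.63, adjusted p = 0.000113; range over the alternatives 0.000113 to 0.559). Of the other alternatives, 1 also called it, as given in the closing section. Sox9, the transcription factor of chondrocytes, measured 57.8, 51.5, 48.1 and 48.6 CPM in control and 64.1, 72.8, 75.8 and 76.4 CPM in KO (0.49 ± 0.088, adjusted p = 0.000402), with no such gap between controls. Matrilin 3 (Matn3, 2 ± 0.27) and the hypertrophic cartilage collagen Col10a1 (10.3, 10.9, 17.3 and 79.9 CPM in control, 123 to 287 CPM in KO; 2.67 ± 0.62, 3.96 without control replicate 4) rose as well. Col10a1 belongs to the bone and hypertrophic cartilage markers, of which 5 of 9 tested rose and 1 fell (Spp1, given above). That list summed to 646 to 1186 CPM in control and 565 to 771 CPM in KO, so its sum was not higher in KO. In bulk RNA more cells of a type and more RNA per cell cannot be told apart.

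Markers of the labelled cell type and of others were summed in the same way. The 15 fibroblast markers were all detected and summed to 22392 to 26672 CPM in control and 17663 to 20815 CPM in KO, with 5 higher and 5 lower members (33.3% each). The lower members numbered 3 without control replicate 3, KO replicate 3 or KO replicate 4. Adipocyte markers summed to 168 to 269.9 CPM in control and 412 to 508 CPM in KO, of which Dlk1 gave the larger part; Cidec, Cfd and Lep were at 0 in all 8 libraries, and of 9 tested 4 rose and 0 fell (median 0.63). Without control replicate 4, 7 adipocyte markers rose (median 1.49), and with litters summed 2 did (median 0.016). Endothelial markers gave 94.8 to 154 CPM in control and 69.9 to 96.9 CPM in KO (2 higher and 2 lower of 10), macrophage markers 132 to 176 and 110.1 to 186 CPM (1 and 4 of 16), and skeletal muscle markers 355 to 427 and 196 to 294 CPM (2 and 1 of 9). Among all tested genes 26.3% were higher and 26.2% lower, and no share of the endothelial, macrophage or muscle list was above that. Smooth muscle and pericyte markers gave 5802 to 7518 CPM in control and 6345 to 7971 CPM in KO (2 higher and 0 lower of 12, 4 and 0 without control replicate 4). Blood and liver markers stayed at or under 0.840 CPM in sum, with Hba-a1, Hba-a2, Alb and Ttr at 0. The part of such cells in the results was not tested.

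Signals of immunity were uneven. Of 38 interferon-stimulated genes 6 rose and 1 fell (median 0.56). The raised share of 15.8% was below the 26.3% of all tested genes. At day 3, 19 of these genes were higher and 0 lower. Of 24 tested chemokines and cytokines 10 rose (41.7%) and 1 fell (4 and 0 with litters summed). The raised interferon-stimulated genes numbered 3 without control replicate 2, KO replicate 1 or KO replicate 2. Ifi44 measured 3.99, 2.85, 4.56 and 1.82 CPM in control and 11.3, 22.1, 13.8 and 11.8 CPM in KO (log2 fold change 2.20 ± 0.54 SE, adjusted p = 0.00512), and Ifit2, an RNA-binding interferon target, 37.3, 37.2, 42 and 27.3 CPM and 15.4, 22.7, 16.5 and 17 CPM (-1.01 ± 0.18, adjusted p = 0.000501). Ifi44 was higher and Ifit2, the only lowered member of the list, was lower in all KO libraries. Il34, a ligand of the CSF1 receptor, rose by 2.86-fold (1.52 ± 0.20), and complement component C3 rose (32.5, 47.4, 14.7 and 13.7 CPM in KO against 1.09 to 8.50 CPM in control; 2.42 ± 0.63), highest in the KO litters 159 and 136. Redox genes among the NRF2 targets rose in 8 cases of 24 (33.3%) and fell in 9 (37.5%). Among all tested genes 26.3% rose and 26.2% fell. Gclc, the rate-limiting enzyme of glutathione synthesis, rose (0.76 ± 0.063) and heme oxygenase Hmox1 fell (-0.91 ± 0.088).

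**Figure D4:**
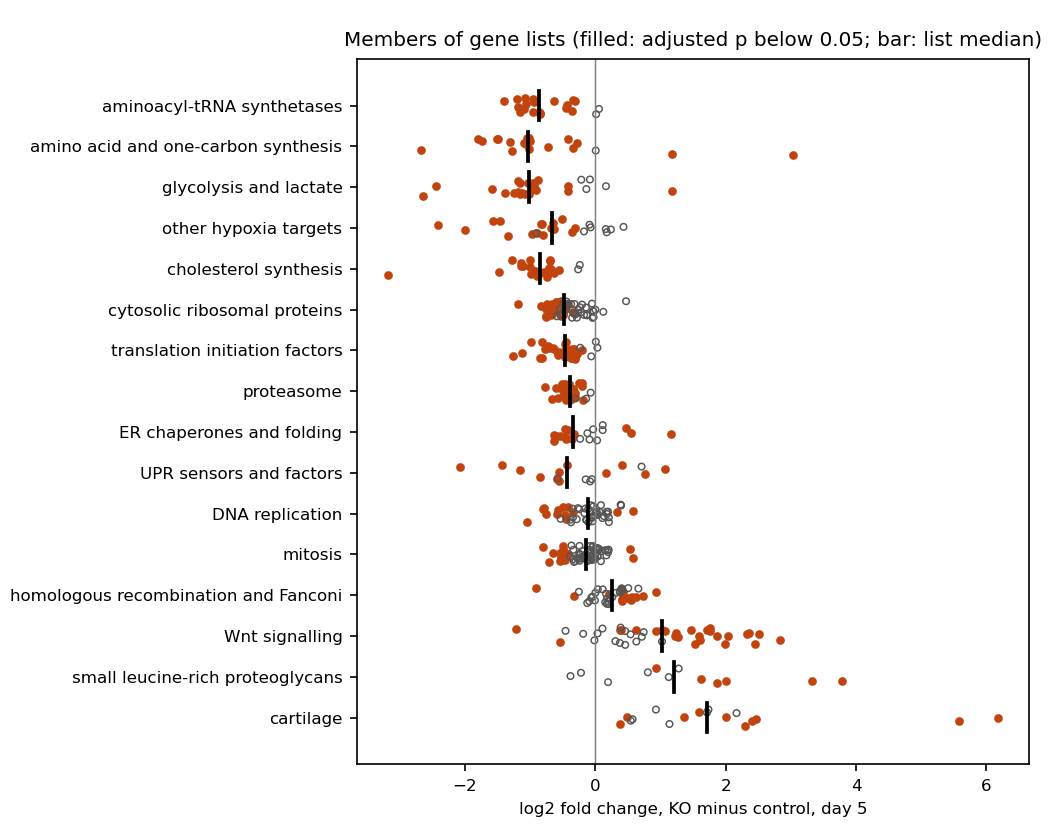
Log2 fold change (KO minus control at day 5) of each tested member of 16 gene lists; filled points were called at an adjusted p below 0.05, open points were not, and the bar is the median of the list. Aminoacyl-tRNA synthetases, glycolysis, cholesterol synthesis and proteasome lie almost wholly below 0, and Wnt, cartilage and small leucine-rich proteoglycan genes mostly above 0.

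Because control replicate 4 stood apart, its place between the genotypes was measured for the 4460 genes that were called without it and differed by more than 1.5-fold in mean log2 CPM. With the mean of the other controls set to 0% and the KO mean to 100%, its median position was 35.8%, and 38.6% of the genes lay past the midpoint. The measure, each time over the genes called without the library, gave medians of -0.928%, -9.27% and -3.54% for control replicates 1 to 3, with 3.62% to 6.53% past the midpoint. For these libraries the 0% point and the choice of genes included control replicate 4, so their medians are not a like baseline for the 35.8%. Position varied between gene groups. For aminoacyl-tRNA synthetases it was 25.2% (n = 14 genes), for amino acid and one-carbon genes 25.2% (15) and for ribosomal proteins 14.4% (18). It was 59% for cholesterol synthesis (23), 62.2% for raised Wnt genes (26), 86% for cartilage genes (13), 88.9% for lowered mitotic genes (14) and 99.1% for lowered replication genes (8). Among the genes so measured, those for amino acid supply and ribosomal proteins in this Tip60+/+ library were thus nearer the other controls. The measured cartilage, mitotic and replication genes were nearer KO cells. They were chosen for a difference between the other controls and KO, and the measure covered 14 of 68 tested mitotic and 8 of 48 tested replication genes. What sets this library apart (litter, sex or culture) cannot be told apart.

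**Figure D5:**
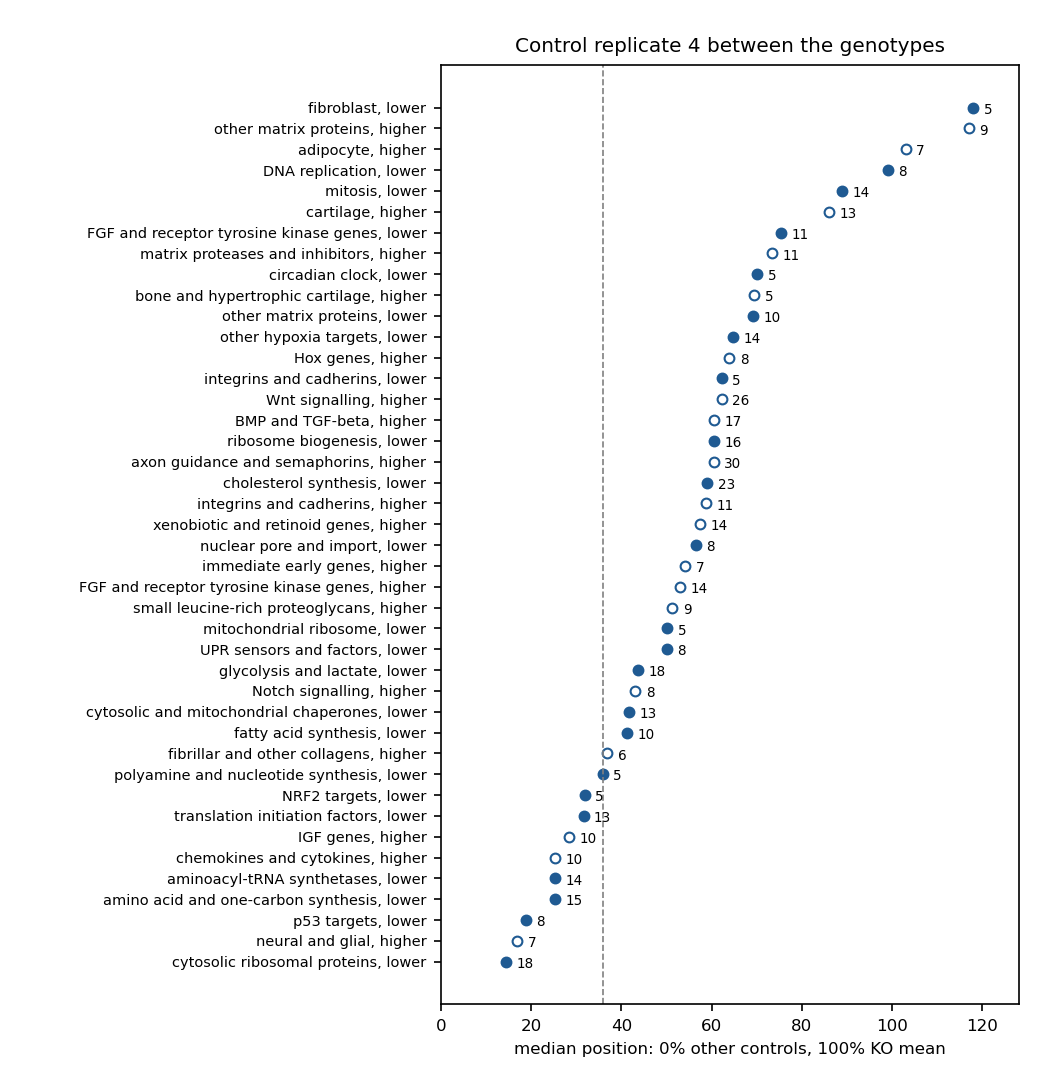
Median position of control replicate 4 between the other controls (0%) and the KO mean (100%) for each gene list with at least 5 members that were called without it and differed by more than 1.5-fold (x axis: percent; the number of genes is given at each point; open points lists of raised genes, filled points of lowered genes). Ribosomal proteins lie lowest at 14.4%, and lowered fibroblast markers (118%), raised other matrix proteins (117%) and raised adipocyte markers (103%) lie past the KO mean, against 35.8% for all such genes (dashed line).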

How the data were processed

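Poly(A) RNA was sequenced as stranded 80-base paired-end libraries, per the labels' protocols. The authors deposited raw read counts per gene (Entrez identifiers) for each library, and the submitters' processing notes name featureCounts and mm10. The aligner, annotation, strand setting or any version was not given in the sources used here. Counts of overlapping or antisense genes are therefore uncertain.

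Lines with no gene identifier (909 of 27179, 0.194% to 0.315% of counts) were left out. RefSeq gave symbols to 25275 of 26270 identifiers. Xist, Tsix and Y-linked genes (112) were left out because sexes are unevenly split. Counts of all 14 libraries entered edgeR 4.0.16 (R 4.3.3, limma 3.58.1): filterByExpr, TMM factors, 4 groups of genotype and day, robust quasi-likelihood tests, Benjamini-Hochberg adjustment over 14327 genes. Genes were called at an adjusted p below 0.05, and glmTreat tested changes beyond 1.5-fold. CPM use TMM-scaled totals, and principal components log2 CPM with a prior count of 2. Alternatives, given in the closing section, included DESeq2 1.42.0, other scalings and filters, day 5 libraries alone, sex as a covariate, summed litters and leaving out each day 5 library. The code was tested on simulated data.

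Named genes were Kat5, the 12 highest and 12 lowest called genes (mean of at least 2 CPM, no overlap between groups, called also without control replicate 4, no clone or predicted name), and for each of 69 gene lists up to 4 called members with the smallest adjusted p, with all CDK inhibitors. Some of these genes are not reported here. Asns and Pycr1 were added because their promoters are shown. Members, lists, the position measure and motifs were chosen with earlier results of these data known. Promoters came from RefSeq (GRCm38.p6), and motifs were searched on both strands. Motif shares of lists were taken over called members only. They do not tell whether a motif goes with the call or with list membership.

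Libraries of a group differed beyond sampling noise (chi-square per degree of freedom 3.29 to 79), so none was a copy. Day 5 libraries came from separate embryos. The edgeR p-values rest on the spread within groups over all 14 libraries, some of which share an embryo. Litter and genotype coincide.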

Additional observations from a re-analysis of the deposited data

Results flagged for a closer look

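Each genotype's 4 day 5 libraries were searched for a library whose gap to the nearest other passed Dixon's 95% limit for its share of the group's range, a criterion that chance meets in about 1 of 20 groups. Of 280 such groups (140 genes) 26 met it, and in 19 the library was control replicate 4. It was the lowest control for Brca2 (12.7 CPM), Bub1b (36 CPM), Mcm2 (53.6 CPM), Dcn (13.9 CPM), Rgs11 (2.40 CPM), Fads1 (225 CPM) and Fads2 (113 CPM). Among secreted and matrix genes it was the highest control for Col2a1 (2472 CPM), Col10a1 (79.9 CPM), Matn3 (4.95 CPM), Omd (10.9 CPM), Timp2 (2932 CPM), Prss35 (27.1 CPM), Il1rn (84.2 CPM) and Wnt10b (6.84 CPM). Among intracellular proteins it was the highest for Aldh3a1 (0.655 CPM), Calr (1677 CPM), Ero1b (6.55 CPM) and Gabarap (339.7 CPM). The same library stood apart in the summed cartilage markers (3511 CPM), the summed neural and glial markers (575 CPM) and on the second principal component (56.4).

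Other libraries stood apart in fewer genes. KO replicate 1 was low for P4ha1 (311 CPM) and Smarca2 (57.7 CPM) and high for Sc5d (89.4 CPM). KO replicate 2 was low for Tek (4.97 CPM) and KO replicate 3 high for Krt19 (22.9 CPM). Among controls, replicate 2 was high for Psmc3 (186 CPM) and replicate 3 held 0 CPM of Glb1l2.

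For 36 of the 140 genes the KO effect at day 5 differed from that at day 3 (interaction adjusted p below 0.05, edgeR). In the ER and stress group the log2 effect was higher at day 5 by 2.28 for Atf3, 1.24 for Ern1, 2.12 for Ero1b, 1.23 for Hsp90b1, 0.84 for Calr, 0.84 for Chac1 and 0.48 for Edem1. In amino acid and redox genes it was higher by 1.76 for Slc7a11, 1.72 for Slc6a9, 0.86 for Cth, 0.55 for Gclc and 0.36 for Pck2, and elsewhere by 1.70 for Cbx7 and 0.67 for Slit2. Of these, Atf3, Ern1 and Ero1b had estimates below 0 at day 3 and above 0 at day 5. Cell cycle and repair genes had lower effects at day 5, with differences of -1.38 for Plk1, -1.43 for Tk1, -1.21 for Cdkn2c, -0.96 for Ccne1, -0.92 for Bub1b, -0.76 for Brca2 and -0.65 for Fancm. Metabolic genes and the hormone Adm2 followed, at -1.63 for Adm2, -0.93 for Slc16a3, -0.88 for Fads2, -0.65 for Tpi1 and -0.60 for Ldhb. For matrix and secretion genes the differences were -2.40 for Matn3, -1.95 for Sfrp1, -1 for Col6a2 and -0.84 for Sec24d. The last were -1.16 for Bok, -0.46 for Bak1, -0.54 for Psmc3, -0.40 for Psma7, -0.51 for Smarca2 and -0.47 for Smarca4. Depth at day 3 ran from 2187168 to 39203154 counts, and its part in these differences was not tested. Day 3 held no library of litters 219 and 159, and its controls were all female. These differences between days therefore cannot be told apart from the change of litters and sexes.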

How the results depend on the processing

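The count of 7519 called genes was 3909 when the libraries of each litter were summed, and the count beyond 1.5-fold (1710) was 421 then and 1051 by DESeq2. Leaving out 1 library at a time gave 6502 to 8376 called genes, 1228 to 2466 beyond 1.5-fold and 1514 to 2750 with an effect that differed between days. Replicate numbers are shared by label only: deviations of same-numbered libraries correlated at 0.23, 0.155, -0.166 and 0.428, and not every library correlated best with its own number, so they were not taken as pairs. A fit with the replicate number as a block called 7264 genes and 1673 beyond 1.5-fold. That block also called Col2a1 (log2 fold change 2.82, adjusted p = 0.0126; range over all alternatives 0.000113 to 0.559) and 13 of 15 cartilage genes as higher. Cdkn1c, not called at 0.015, was at -0.19, -0.12 and -0.01 without control replicate 4, KO replicate 1 and KO replicate 2 (at most 0.15 without the others) and at -0.0033 by DESeq2. The cause was not tested. Of 138 called genes named with values, 121 kept the call under all 17 alternatives, 17 lost it with litters summed, which leaves 3 against 2 units (Atf3, Bub1b, C3, Cdkn1b, Cdkn2c, Cdkn2d, Col10a1, Dcn, F2rl1, Hey1, Mcm2, Nnmt, Omd, Plk1, Stc2, Timp2 and Tk1), and 0 changed direction. Most of these genes were named for a small adjusted p or a large change, so the share that kept the call does not stand for all called genes. Of the 7519 genes called in the main fit, 3818 were also called with litters summed. Of 52 list counts (5 or more members called), 35 moved by over 1.5 times with litters summed. Among those not given with their lists, raised autophagy genes then numbered 3, raised interferon-stimulated genes 2, raised and lowered fibroblast markers 2 and 1, and lowered SWI/SNF genes 2. Lowered amino acid transporters numbered 3, raised NRF2 targets 5, raised and lowered H2A.Z genes 3 and 3, and raised and lowered Polycomb genes 3 and 6. Raised neural and glial markers, 5 in the main fit, numbered 3. Raised UPR genes, at 4 too few to be followed as a count, numbered 1 with litters summed. Scaling by library totals gave 4466 higher and 3103 lower genes and moved the median log2 fold change from 0.021 to 0.091. With 6064694 counts, control replicate 3 limits genes near 1 CPM.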

Other observations

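Genes of the Tip60 complex, of Polycomb and DNA methylation and of SWI/SNF were called in both directions at shares near those of all tested genes (26.3% higher and 26.2% lower). Of 19 complex members 6 rose and 4 fell (31.6% and 21.1%), Kat5 among the latter. The MRG family subunit Morf4l2 measured 385, 396, 413 and 408 CPM in control and 204, 207, 208 and 217 CPM in KO (log2 fold change -0.94 ± 0.059 SE, adjusted p = 5.38e-08). The scaffold Epc1 measured 30.1, 30.8, 29.3 and 33.9 CPM in control and 52.4, 54.8, 56.5 and 55.1 CPM in KO (0.81 ± 0.075, adjusted p = 1.21e-06), and Dmap1 rose as well (0.72 ± 0.092). The groups did not overlap in Morf4l2 and Epc1, which moved in opposite directions. Of 19 genes that encode, exchange or bind H2A.Z 6 rose and 8 fell, among them Znhit1 of the SRCAP exchange complex (-0.90 ± 0.094) and the H2A.Z chaperone Anp32e (-0.44 ± 0.083). Without control replicate 2 the lowered H2A.Z genes numbered 5. The Polycomb gene Cbx7, which is known to repress the Cdkn2a locus, rose (1.72 ± 0.27), and the SWI/SNF ATPases went apart, with Smarca2 raised (0.71 ± 0.082) and Smarca4 lowered (-0.56 ± 0.082). Polycomb and DNA methylation genes counted 8 higher and 10 lower of 33, SWI/SNF genes 5 and 6 of 20, and deacetylases 2 and 4 of 18 (7 lower without control replicate 4).

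Supply pathways beyond those above also had more lowered than raised members. Nuclear import and pore genes were lower in 16 of 32 cases and higher in 1 (6 lower with litters summed), with the importin Ipo4 at 50.9% of control (-0.97 ± 0.07) and the GTPase Ran at -0.91 ± 0.11. Polyamine and nucleotide genes were lower in 11 of 22 and higher in 1 (5 lower with litters summed). Cad, which starts pyrimidine synthesis, measured 149, 158, 134 and 117 CPM in control and 67.6, 74.9, 61.9 and 57.6 CPM in KO (log2 fold change -1.09 ± 0.11 SE, adjusted p = 2.64e-06). Spermidine synthase Srm fell alike (-1.11 ± 0.13). In the mitochondrion, lower genes numbered 17 of 35 for oxidative phosphorylation, 10 of 18 for the tricarboxylic acid cycle and 17 of 45 for the mitochondrial ribosome, and higher genes 2, 2 and 7. With litters summed the lower genes numbered 8, 6 and 4, and none was higher. Without control replicate 2 the lower mitochondrial ribosome genes numbered 11, without KO replicate 3 the higher ones numbered 4, and scaled by library totals the lower oxidative phosphorylation genes numbered 11. Citrate synthase Cs fell to 63% of control (-0.67 ± 0.08). The medians of these lists of nuclear genes were -0.16, -0.23 and -0.084. The lowered shares were 48.6%, 55.6% and 37.8%, against 26.2% of all tested genes. Scaled by library totals, 10 mitochondrial ribosome genes were lower and 9 higher. The mitochondrial share of counts, given above, was higher in KO libraries. Lysosome genes were lower in 14 of 35 and higher in 3 (8 lower with litters summed), and autophagy genes were lower in 6 and higher in 7 of 26, with the ATG8 family member Gabarap lowered (-1.17 ± 0.097) and the conjugation protein Atg12 raised (0.65 ± 0.062). Without control replicate 3 the higher autophagy genes numbered 4.

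Markers of further cell types were low or uneven. Among epithelial markers, E-cadherin (Cdh1) measured 0.129, 0.0519, 0.163 and 0.218 CPM in control and 1.22, 2.27, 3.45 and 4.57 CPM in KO (log2 fold change 4.37 ± 0.58 SE, adjusted p = 2.68e-05), while keratin Krt19 fell (-1.10 ± 0.19). The list summed to 41.4 to 66.5 CPM in control and 36.3 to 50.2 CPM in KO, so the rise of Cdh1 came with no higher sum. The POU factor Pou3f1 of the neural and glial list measured 0, 0.104, 0.163 and 0.0727 CPM in control and 2.34, 3.55, 2.29 and 2.69 CPM in KO (5.05 ± 0.52, adjusted p = 3.4e-06), so its estimate rests on few control counts. That list summed to 369 to 575 CPM in control and 480.3 to 633 CPM in KO.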
